A study of Mus musculus with 19 samples.

Results

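The genes described here regulate the sterol regulatory element-binding proteins (SREBPs) and carry cholesterol into, through and out of the cell. The set holds Srebf1, Srebf2, Scap, Insig1, Insig2, Stard4, Mylip, Abca1 and Abcg1. It was found by gene symbol in a table of DESeq2-normalized counts, where 9 of 20408 genes matched, each in 1 row. All 9 passed the filter on low values and stood among the 14845 genes tested.

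Bulk RNA-Seq was performed on the suprarenal abdominal aorta (SRA) of 19 male mice, 24 h after the start of an infusion by osmotic pump. IKKβ-/- mice carried SMA-CreERT2, a tamoxifen-activated Cre recombinase driven by the smooth muscle actin promoter, with Ikkb Flox/Flox on an ApoE-/- background. IKKβ+/+ mice were SMA-CreERT2 ApoE-/- littermates, so that Cre, ApoE deficiency, tamoxifen and a chow diet were shared by all groups. Tamoxifen was given from 8 weeks of age, and pumps implanted after a recovery period delivered saline or angiotensin II (Ang II). The dose of Ang II for these libraries was 1000 ng/min/kg per the methods, where the labels print a range of 500 to 1000. There were 5 saline-infused and 5 Ang II-treated IKKβ+/+ mice, and 4 saline-infused and 5 Ang II-treated IKKβ-/- mice. IKKβ is the kinase that activates NF-κB, and the Cre promoter limits the deletion to cells that express smooth muscle actin.

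Each mouse gave between 11382573 and 19906694 reads on genes. Ikbkb, the targeted gene, was 23.5% lower in saline-infused IKKβ-/- mice (515 ± 74.3 normalized counts, SD, n = 4) than in saline-infused IKKβ+/+ mice (673 ± 78.6, n = 5; 2-sided exact permutation p = 0.0159). It was 24.5% lower with Ang II (548 ± 87.9 against 726 ± 46.3, n = 5 each, 2-sided exact permutation p = 0.00794). Smooth muscle markers such as Acta2 and Myh11 were abundant in every mouse, with a summed level of the 10 markers between 333328 and 688002 normalized counts. Of 10 adrenal cortex markers 4 were in the table, and 2 of these stayed under 10 in every mouse. Some libraries stood apart: replicate 3 of the Ang II-treated IKKβ+/+ group had 8919 summed counts of 8 neuron and chromaffin markers, where the lowest mouse of that group had 1278. Replicate 1 of the same group also held such transcripts, with 98.5 counts of Th and 214 of Dbh, against 825 and 1674 in replicate 3 and at most 8.0 and 21.3 in the other 17 mice. Replicates 3 and 4 of the Ang II-treated IKKβ-/- group were rich in adipocyte transcripts. Each group had its own block of mouse numbers, so a shared preparation or day cannot be told apart from the group.

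SREBPs are made as precursors in the membrane of the endoplasmic reticulum. When sterols are low, Scap escorts them to the Golgi, where proteases release the part that enters the nucleus and turns on genes of sterol and fatty acid synthesis. When sterols are high, Insig proteins hold Scap and its cargo back. In the opposite direction, oxysterols activate liver X receptors (LXRs), which turn on genes of cholesterol export, including Abca1 and Abcg1, and Mylip, an E3 ubiquitin ligase that marks lipoprotein receptors for degradation. In arteries these routes are best known for setting the cholesterol load of macrophages and of smooth muscle cells that have taken up lipid.

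The sequences upstream of 4 members are shown because the members fall on both arms of this system, Srebf2 and Insig1 on the SREBP arm and Mylip and Abca1 on the LXR arm. They are RefSeq sequences of GRCm38.p6, written 5′ to 3′ on the strand of the gene, and end at the base before the gene start that the deposited table gives. Capitals mark ATCACCCC (the first letters of the classical sterol regulatory element), CCAAT (the box that binds NF-Y), CACGTG (the E-box that SREBP-1 and other helix-loop-helix factors bind) and TNACC repeated after 5 free letters (a relaxed spelling of the direct repeat that LXR binds with its RXR partner), on either strand. The Srebf2 window is chr15:82147019-82147180 (+ strand), that of Insig1 chr5:28071162-28071362 (+ strand), that of Mylip chr13:45389492-45389741 (+ strand) and that of Abca1 chr4:53159896-53160145 (- strand).
Srebf2: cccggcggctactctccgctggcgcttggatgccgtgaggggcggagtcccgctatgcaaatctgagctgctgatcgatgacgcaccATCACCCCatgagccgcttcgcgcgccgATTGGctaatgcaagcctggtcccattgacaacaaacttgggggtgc
Insig1: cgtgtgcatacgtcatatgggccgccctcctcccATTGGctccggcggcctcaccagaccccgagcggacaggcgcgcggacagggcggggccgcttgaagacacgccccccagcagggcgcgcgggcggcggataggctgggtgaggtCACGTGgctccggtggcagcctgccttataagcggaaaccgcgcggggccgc
Mylip: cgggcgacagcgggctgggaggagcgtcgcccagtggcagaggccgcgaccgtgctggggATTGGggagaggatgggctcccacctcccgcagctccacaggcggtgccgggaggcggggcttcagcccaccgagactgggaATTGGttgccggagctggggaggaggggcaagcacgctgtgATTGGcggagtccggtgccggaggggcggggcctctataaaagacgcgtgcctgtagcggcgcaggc
Abca1: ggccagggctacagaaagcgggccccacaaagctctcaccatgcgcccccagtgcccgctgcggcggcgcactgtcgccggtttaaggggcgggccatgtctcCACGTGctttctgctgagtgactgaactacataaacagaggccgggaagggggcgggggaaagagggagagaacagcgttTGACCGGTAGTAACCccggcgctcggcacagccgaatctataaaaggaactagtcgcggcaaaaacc

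In Srebf2, ATCACCCC began 163 bases before the RefSeq start and the reversed CCAAT box began 135 bases before it. Among the 32851 RefSeq promoter windows of the mouse, each 250 bases before to 50 after a start, 0.77% held ATCACCCC. In Insig1 the E-box began 101 bases before the start, and in Abca1 it began 147 bases before it, where 7.15% of all windows held an E-box. Abca1 also held the relaxed direct repeat, 67 bases before the start, which 0.718% of all windows held. A window of Srebf1, not printed here, held this repeat as well, 182 bases before its start. Mylip held 3 reversed CCAAT boxes, and 37.4% of all windows held at least 1 CCAAT box. A match is a description of the letters and not a site of binding. RefSeq windows were read for 7 of the 9 members. Of those not printed, Scap held an E-box in both of its 2 windows, and windows of Srebf1 and Insig2 held CCAAT boxes.

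A second sequence ties Srebf2 to the exporters. The hairpin of miR-33 lies at chr15:82198122-82198190 (+ strand, GRCm38.p6), inside Srebf2 and outside its annotated exons, and miR-33 is known to repress Abca1. The mature 5p strand is shown with its seed, bases 2 to 8, in capitals, beside the stretches of the Abca1 and Abcg1 3′ untranslated regions that hold the matching letters CAATGCA, in capitals.
mmu-miR-33-5p: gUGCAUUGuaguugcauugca
Abca1: tattCAATGCAATGCActtCAATGCAacga
Abcg1: aacgCAATGCAacgCAATGCAgaca

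The Abca1 stretch (chr4:53033783-53033812, - strand) held 3 seed matches, of which 2 overlap, and the Abcg1 stretch (chr17:31114998-31115022, + strand) held 2. The longest annotated 3′ untranslated region of each of the other 7 members held none. Over 21022 mouse genes, 7.12% held a match in that region. The regions of Abca1 and Abcg1 were 3156 and 3703 bases long, where the median over these genes was 961. The 7.12% is therefore not a share for regions of that length. Those of the other 7 members ran from 149 (Scap) to 4231 bases (Stard4). The libraries were made from poly(A) RNA, so mature miR-33 was not measured.

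Per kilobase of exon, Insig2 was the most abundant member, at 259 ± 19.7 normalized counts per kilobase (SD, n = 19). Srebf2 followed at 181 ± 54.8. Insig1 (144 ± 60.6), Srebf1 (140.1 ± 40.8), Abca1 (134 ± 51.5) and Mylip (132 ± 33.0) lay within their spread of each other and of Srebf2. Scap (61.9 ± 9.1) and Stard4 (53.3 ± 14.9) formed a lower pair that did not differ beyond their spread, and Abcg1, which exports cholesterol to high-density lipoprotein, was the lowest at 19.8 ± 6.6.

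**Figure D1:**
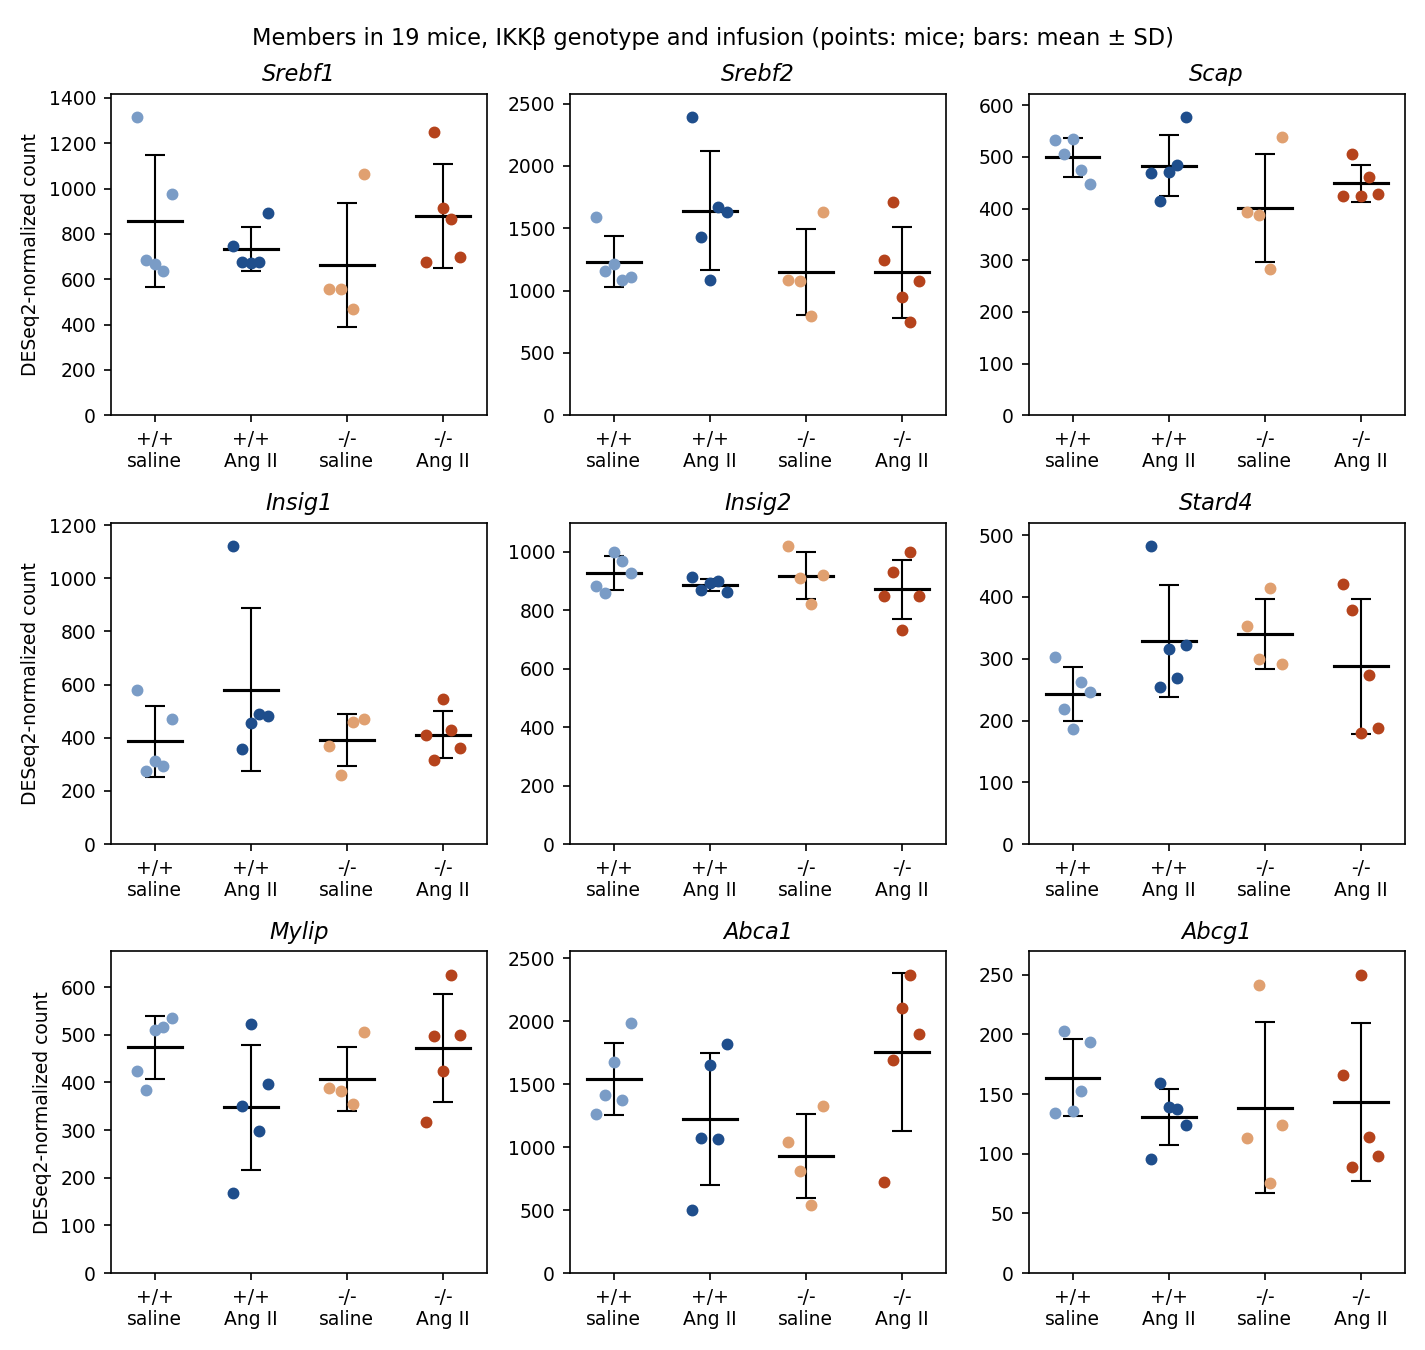
DESeq2-normalized counts of the 9 members (vertical axes, linear, from 0) in each of 19 mice (points), by IKKβ genotype and infusion, with the mean and SD of each group (black bars). In each panel the groups overlap, and the points of Insig2 lie closest together, between 732 and 1019.

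None of the 9 members was called in any of the 5 comparisons made, where a call needed a Benjamini-Hochberg adjusted p under 0.1 across all tested genes and a fold change above 1.2 in limma. For Ang II against saline in IKKβ+/+ mice, 0 of 9 members were called, where 8.66% of all tested genes were. In IKKβ-/- mice 0 of 9 were called against 5.29% of all genes. For the difference of the Ang II effect between genotypes, 0 of 9 were called and 0% of all genes. Between genotypes, 0 of 9 were called with saline, against 5.47% of all genes, and 0 of 9 with Ang II, against 0.128%. With edgeR the count was 0 in each comparison, and with DESeq2 it was 0 in all but 1, Ang II against saline in IKKβ-/- mice, where Abca1 was called. In that comparison DESeq2 called 1164 of the 14845 tested genes.

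At an unadjusted p under 0.05, limma gave 1 of 9 members for Ang II in IKKβ+/+ mice (Mylip), where 20.3% of all genes had such a p, and 1 of 9 in IKKβ-/- mice (Abca1), where 17.8% did. It gave 3 of 9 for the difference between these effects (Abca1, Stard4 and Mylip), where 11.1% of all genes did. For the same difference edgeR gave 1 of 9 and DESeq2 2 of 9. Between genotypes, limma gave 2 of 9 with saline (Abca1 and Scap), beside 19.2% of all genes, and 2 of 9 with Ang II (Srebf2 and Mylip), beside 14.3%. With Ang II edgeR and DESeq2 gave 1 each. No member had groups that did not overlap, in any of the 4 comparisons of 2 groups. Of all tested genes, 8.42% had groups apart for Ang II in IKKβ+/+ mice, 5.29% in IKKβ-/- mice, 8.76% between genotypes with saline and 1.54% with Ang II. The 2 Ang II comparisons and the 2 genotype comparisons share groups with the difference and with each other, so that 1 unusual group enters several values. Of 15 clock genes, limma called 9 higher and 3 lower in saline-infused IKKβ-/- than IKKβ+/+ mice. With Ang II it called 3 higher and 8 lower in IKKβ-/- mice and 1 lower in IKKβ+/+ mice. With clock genes as a covariate, calls over all genes went from 812 to 0 between genotypes with saline. They went from 785 to 13 with Ang II in IKKβ-/- mice and from 1286 to 1086 in IKKβ+/+ mice. The part of the clock genes in the members' values was not tested beyond such fits.

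**Figure D2:**
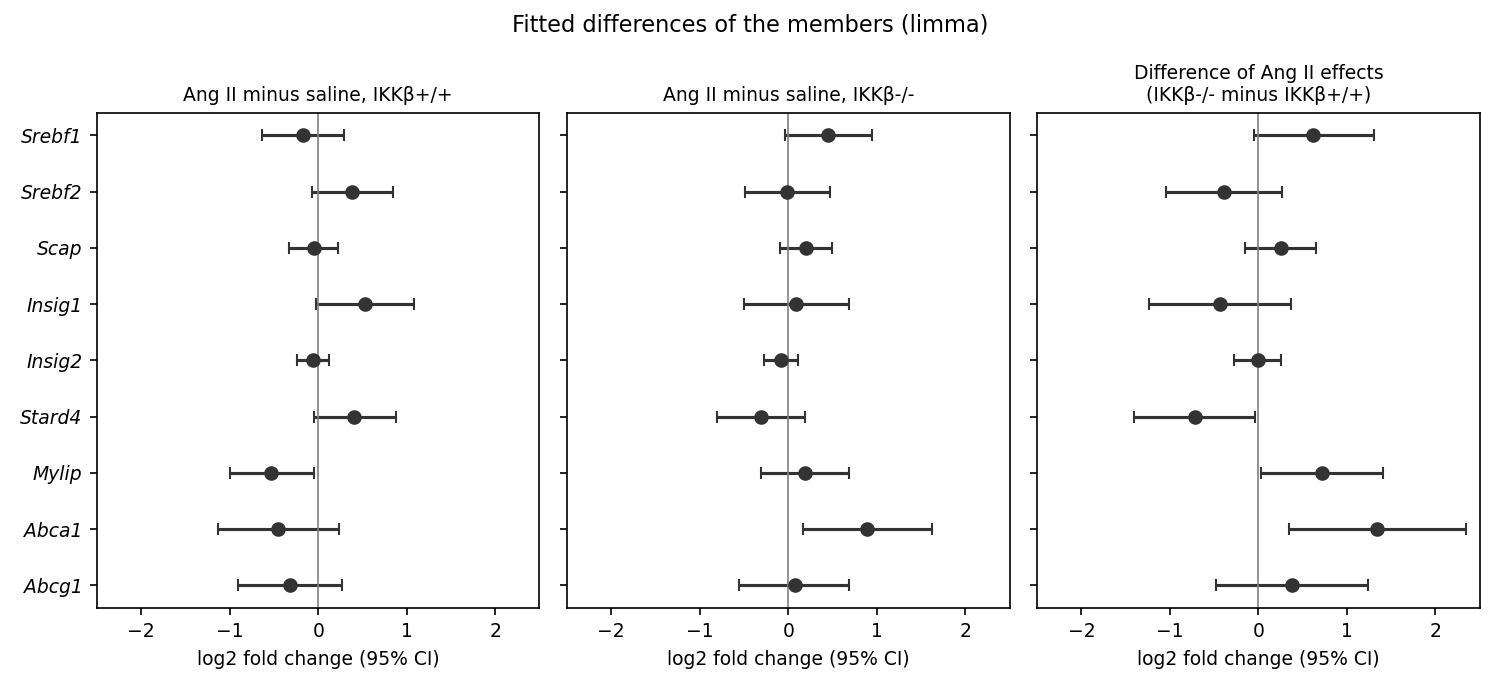
Fitted log2 fold changes of the 9 members (points) with 95% confidence intervals (bars) on the log2(normalized count + 1) scale, for Ang II minus saline in IKKβ+/+ mice, in IKKβ-/- mice, and for the difference of these effects. The intervals of Abca1, Stard4 and Mylip for the difference lie on 1 side of 0, and no adjusted p was under 0.1.

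Srebf2 encodes SREBP-2, the factor that mainly drives cholesterol synthesis. Its normalized counts were 1088, 1113, 1157, 1209.8 and 1594 in saline-infused IKKβ+/+ mice and 1088, 1427, 1627, 1672 and 2391 in Ang II-treated ones. With the kinase deleted they were 799.9, 1077, 1084 and 1628 with saline and 749.9, 945, 1079.7, 1248 and 1707 with Ang II. With Ang II, 3 of 5 IKKβ+/+ mice were above every saline-infused one, and the IKKβ-/- groups covered nearly the same range. Ang II gave a log2 fold change of 0.38 (SE 0.22, limma adjusted p = 0.341) in IKKβ+/+ mice and -0.01 (SE 0.23, adjusted p = 0.989) in IKKβ-/- mice. The difference of the effects was -0.39, with a 95% interval from -1.05 to 0.27. Of 10 smooth muscle markers, 3 were called higher with Ang II in IKKβ+/+ mice, and their summed level was 362035 to 490001.9 with saline and 496112 to 688002 with Ang II, against 464657 to 636468 and 333328 to 591132 in IKKβ-/- mice. The part of this in the Srebf2 values was not tested. With Ang II, the log2 fold change of Srebf2 between IKKβ-/- and IKKβ+/+ mice was -0.53 (95% interval -0.98 to -0.07, limma adjusted p = 0.285), and 3 of 5 IKKβ-/- mice lay below every IKKβ+/+ mouse.

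Srebf1 encodes SREBP-1, the factor that mainly drives fatty acid synthesis and is itself an LXR target. It stood at 634, 668, 687, 976 and 1314 normalized counts in saline-infused and at 671, 674, 677, 749 and 894 in Ang II-treated IKKβ+/+ mice. In saline-infused IKKβ-/- mice it stood at 468, 557, 558 and 1065, and with Ang II at 677, 698, 864, 913 and 1248. The log2 fold change with Ang II was -0.17 in IKKβ+/+ (SE 0.22) and 0.45 in IKKβ-/- mice (SE 0.24, limma adjusted p = 0.326). Leaving out 1 mouse at a time, the latter value was lowest without replicate 3 of the saline-infused IKKβ-/- mice, at 0.31. Without replicate 4 of the saline-infused IKKβ-/- mice, which held the 1065 counts, the log2 fold change was 0.70 with an adjusted p of 0.0827 by limma, and Srebf1 was then also called lower in saline-infused IKKβ-/- than IKKβ+/+ mice (-0.64, adjusted p = 0.082). With all mice that genotype difference was -0.39 (SE 0.24, adjusted p = 0.38).

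Scap, the escort of both SREBPs, ranged 2.04-fold from its lowest to its highest mouse. In IKKβ+/+ mice it held 448, 474, 506, 532 and 535 normalized counts with saline and 414, 469, 471, 483 and 576 with Ang II. IKKβ-/- mice held 283, 388, 394 and 538 with saline and 423, 425, 428, 461 and 506 with Ang II. With saline, 3 of 4 IKKβ-/- mice lay below every IKKβ+/+ mouse and the fourth lay above all of them. That genotype difference was -0.35 on the log2 scale (SE 0.14, limma adjusted p = 0.177). Without the same saline-infused IKKβ-/- replicate 4, it was -0.50 with an adjusted p of 0.0276 and so a call. The log2 fold change with Ang II was -0.05 for IKKβ+/+ and 0.20 for IKKβ-/- mice. Their 95% intervals ran from -0.33 to 0.22 and from -0.09 to 0.49.

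The paralogs Insig1 and Insig2 retain Scap in the endoplasmic reticulum. Insig1, itself a target of SREBPs, held 276, 292, 312, 472 and 582 normalized counts in saline-infused and 358, 454, 483, 488 and 1120.3 in Ang II-treated IKKβ+/+ mice. It held 261, 369.6, 459 and 472 in saline-infused and 316, 359.9, 410.3, 430.3 and 546 in Ang II-treated IKKβ-/- mice. Except for 1 Ang II-treated IKKβ+/+ mouse, replicate 1, all mice lay between 261 and 582. The log2 fold change with Ang II was 0.53 in IKKβ+/+ mice (SE 0.27, limma adjusted p = 0.274) and 0.26 without that replicate. It was 0.09 (SE 0.28) in IKKβ-/- mice.

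Insig2, which is not controlled by SREBPs in the same way, was the steadiest member. Its normalized counts ranged from 861 to 998 in saline-infused and from 863 to 913 in Ang II-treated IKKβ+/+ mice, and from 823 to 1019 and from 732 to 999 in the corresponding IKKβ-/- mice. Its highest mouse exceeded its lowest 1.39-fold, whereas for the other 8 members this ratio was between 2.04 for Scap and 4.71 for Abca1. The log2 fold changes in the 5 comparisons lay between -0.08 and -0.01, with SEs from 0.09 to 0.13. The 95% interval for Ang II reached from -0.24 to 0.12 in IKKβ+/+ and from -0.27 to 0.11 in IKKβ-/- mice.

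Stard4 carries free cholesterol between membranes and is a target of SREBP-2. It held 186, 219, 246, 262 and 302 normalized counts in saline-infused and 254, 268, 316, 323 and 482 in Ang II-treated IKKβ+/+ mice. It held 292, 300.2, 353 and 414 in saline-infused and 179.6, 188, 273, 379 and 420.5 in Ang II-treated IKKβ-/- mice. Of the Ang II-treated IKKβ-/- mice 3 of 5 lay below every saline-infused one, and of the Ang II-treated IKKβ+/+ mice 3 of 5 lay above every saline-infused one. The log2 fold change was 0.41 in IKKβ+/+ (SE 0.22, limma adjusted p = 0.312) and -0.31 in IKKβ-/- mice (SE 0.24, adjusted p = 0.543). The difference of the effects was -0.72 (95% interval -1.41 to -0.04, limma adjusted p = 0.422). With saline, the genotype difference was 0.49 (SE 0.24, adjusted p = 0.269), which became a call only when the saline groups were fitted alone (adjusted p = 0.0992).

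Mylip, the ubiquitin ligase, held 384, 425, 510.2, 516 and 536 normalized counts in saline-infused IKKβ+/+ mice and 167, 299, 351, 398 and 523 in Ang II-treated ones. IKKβ-/- mice held 355, 382, 388 and 506 with saline and 316, 425, 498, 499 and 625 with Ang II. In IKKβ+/+ mice 3 of 5 Ang II-treated mice were below every saline-infused one, and in IKKβ-/- mice 1 of 5 was. The log2 fold change was -0.53 in IKKβ+/+ mice (SE 0.23, limma adjusted p = 0.192) and 0.19 in IKKβ-/- mice (SE 0.24). Without replicate 3 of the Ang II-treated IKKβ+/+ group, the library with the most neuronal transcripts, the first value was -0.70 with an adjusted p of 0.0553, a call. Without replicate 1 of that group, the mouse at 167 counts, which also held Th and Dbh transcripts, it was -0.29. The difference of the effects was 0.72 (95% interval 0.03 to 1.41, adjusted p = 0.434).

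Abca1, the transporter that hands cholesterol and phospholipid to apolipoprotein A-I, had the largest fitted changes of the 9 members for Ang II in IKKβ-/- mice and for the difference of the effects. Its normalized counts were 1266, 1373, 1414, 1675 and 1982 in saline-infused and 502, 1065, 1076, 1649 and 1817 in Ang II-treated IKKβ+/+ mice. Among IKKβ-/- mice they were 539, 807, 1040.4 and 1323 with saline and 723, 1695, 1897, 2106 and 2364 with Ang II. Of the Ang II-treated IKKβ-/- mice, 4 of 5 exceeded every saline-infused one, and the fifth, replicate 1, lay among the saline-infused mice. In IKKβ+/+ mice, 3 of 5 Ang II-treated mice were below every saline-infused one.

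The log2 fold change of Abca1 with Ang II was -0.45 in IKKβ+/+ mice (SE 0.33, limma adjusted p = 0.47) and 0.89 in IKKβ-/- mice (SE 0.35, adjusted p = 0.183). DESeq2 called the latter, at 0.92 with an adjusted p of 0.0711, in a comparison where it called 1164 of the 14845 genes and limma 785. Without replicate 1 of the Ang II-treated IKKβ-/- mice limma called this change of Abca1 too, at 1.18 with an adjusted p of 0.0367. The difference of the effects was 1.34 (95% interval 0.34 to 2.34, limma adjusted p = 0.332). No gene was called for that difference with limma, where the lowest adjusted p of any gene was 0.215. The genotypes differed in Abca1 by -0.79 with saline (SE 0.35, adjusted p = 0.217), a call with an adjusted p of 0.0687 when the saline groups were fitted alone, and by 0.55 with Ang II (SE 0.33, adjusted p = 0.455).

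Fibroblast markers varied with Abca1 within groups, with r 0.90 over 19 mice, but not in every comparison. None of the 7 fibroblast markers tested was at 0 in any group, and their summed level was 69047.8 to 91452.3 in saline-infused and 26661 to 84099 in Ang II-treated IKKβ+/+ mice. It was 52938.8 to 73037 in saline-infused and 27507 to 103948.9 in Ang II-treated IKKβ-/- mice. With Ang II in IKKβ-/- mice, where Abca1 was at 0.89, none of the 7 markers was called by limma, edgeR or DESeq2, 1 had an unadjusted p under 0.05, 4 had log2 values above 0 and the median was 0.05. In IKKβ+/+ mice 1 was called lower and the median was -0.78. In the difference of the effects none was called by the 3 tools or had an unadjusted p under 0.05, and all 7 had values above 0 with a median of 0.76. Between genotypes with saline, where Abca1 was at -0.79, none was called by the 3 tools and 2 had an unadjusted p under 0.05. There 0 of 7 had values above 0, with a median of -0.67. With the mean of these markers as a covariate, a fit chosen after seeing the data, Abca1 with Ang II was 0.87 in IKKβ-/- mice (limma adjusted p = 0.00571, a call), 0.14 in IKKβ+/+ mice (adjusted p = 0.805) and 0.73 in the difference (adjusted p = 0.555). In the same fit the genotypes differed in Abca1 by -0.29 with saline (limma adjusted p = 0.439) and by 0.45 with Ang II (adjusted p = 0.184). Over all genes, this fit moved the limma calls with Ang II from 785 to 1284 in IKKβ-/- and from 1286 to 423 in IKKβ+/+ mice. Between genotypes they went from 812 to 130 with saline and from 19 to 148 with Ang II. In bulk tissue, fewer cells of a type and less RNA per cell cannot be told apart.

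Of 9 tested white adipocyte markers, 8 were called higher with Ang II in IKKβ-/- mice. Their median log2 fold change was 4.04 and the summed levels of all 10 markers in the table were 5009 to 7706 with saline and 8562 to 47115.5 with Ang II. With these markers as a covariate, Abca1 with Ang II in IKKβ-/- mice was 0.45 (limma adjusted p = 0.816), and without replicates 3 and 4 of the Ang II-treated IKKβ-/- group it was 0.59 (adjusted p = 0.518). Calls over all genes in this comparison went from 785 to 3 in the first of these fits and to 271 in the second. Of 11 macrophage markers, limma called 2 lower in saline-infused IKKβ-/- than IKKβ+/+ mice, edgeR called 2 and DESeq2 4. There 0 of 11 had values above 0, the median was -0.66 and 5 had an unadjusted p under 0.05 by limma. The sums of the 11 markers were 5548.5 to 7774 in these IKKβ-/- mice and 8753 to 11833 in the IKKβ+/+ mice. With macrophage markers as a covariate, Abca1 was -0.28 between genotypes with saline (limma adjusted p = 0.76) and 0.82 with Ang II in IKKβ-/- mice (adjusted p = 0.152). Calls over all genes went from 812 to 53 and from 785 to 847 in this order. The part of these cells in the Abca1 values was not tested beyond these fits.

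Abcg1, the partner of Abca1 in cholesterol export, held 134, 136, 153, 194 and 202 normalized counts in saline-infused and 95.3, 124, 138, 139 and 159 in Ang II-treated IKKβ+/+ mice. It held 75.7, 113, 124 and 241 in saline-infused and 88.9, 97.7, 114, 166 and 249 in Ang II-treated IKKβ-/- mice. The IKKβ-/- groups were widely spread and covered the same range. Its log2 fold change with Ang II was -0.32 (SE 0.28) for IKKβ+/+ and 0.07 (SE 0.30) for IKKβ-/- mice. The difference was 0.38 with a 95% interval from -0.48 to 1.24, so an effect as large as that fitted for Abca1 lay just outside the interval.

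The members lay beside pathways that did change. Of 21 cholesterol synthesis enzymes, 12 were called higher and none lower when IKKβ+/+ mice received Ang II. The median log2 fold change of the list was 0.89, that of all tested genes 0.01 and that of the 9 members -0.06. Sqle, the squalene epoxidase, rose from 300.9 ± 99.8 to 969 ± 666 normalized counts (SD, n = 5 each; log2 fold change 1.53, SE 0.37, limma adjusted p = 0.0258). Hsd17b7, a sterol reductase, rose by 1.42 and Idi1, the isopentenyl diphosphate isomerase, by 1.36 on the log2 scale. Fdps, the farnesyl diphosphate synthase, rose by 2.42 from only 9.4 ± 6.0 counts, and its reads may be shared with processed copies of the gene. With Ang II in IKKβ-/- mice, limma called 0 of 21 enzymes and edgeR and DESeq2 called 1 each, 2 had an unadjusted p under 0.05, and the median was 0.07, beside 0.09 for the members. The first count rested in part on replicate 1 of the Ang II-treated IKKβ+/+ mice, without which 6 enzymes were called, and it was 3 with fibroblast markers as a covariate. The list median was 0.71 in both of these fits, and with that covariate the calls over all genes went from 1286 to 423. In the difference of the Ang II effect limma called 0 of 21, edgeR 0 and DESeq2 1, while 11 had an unadjusted p under 0.05, 2 had values above 0 and the median was -0.82.

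Among 21 genes of SREBP transport, cleavage and turnover, Ube2g2 and Aup1, which serve the degradation of proteins of the endoplasmic reticulum, rose with Ang II in IKKβ+/+ mice by 0.46 and 0.40 on the log2 scale (limma adjusted p = 0.07 and 0.0818). Erlin2, a partner of Insig-bound complexes there, fell by 0.40 (adjusted p = 0.0356) and was also lower, by a log2 fold change of -0.37, in saline-infused IKKβ-/- than IKKβ+/+ mice (adjusted p = 0.0833). With Ang II in IKKβ-/- mice Ube2g2, Aup1 and Erlin2 were at 0.29, 0.31 and 0.07 (limma adjusted p = 0.336, 0.244 and 0.797). The other 18 genes of this list were not called by limma in any of the 5 comparisons, and the list's medians lay between -0.09 and 0.08.

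Of 15 fatty acid synthesis genes under SREBP-1, limma called 3 higher with Ang II in IKKβ-/- mice, and the list median was 0.67. These were Scd1, the stearoyl-CoA desaturase (2.01, SE 0.61, limma adjusted p = 0.0826), Gpam, which starts glycerolipid synthesis (1.03), and Elovl5, a fatty acid elongase (0.38). In these mice 12 of the 15 had values above 0, and DESeq2 called 3 higher and 1 lower. For IKKβ+/+ mice limma called none, edgeR and DESeq2 called 1 each, 2 had an unadjusted p under 0.05, and the median was -0.39. In the difference of the effects limma and edgeR called 0 and DESeq2 6. There 8 had an unadjusted p under 0.05 by limma, 13 had values above 0 and the median was 0.73. With saline, Fasn, the fatty acid synthase (-1.65, adjusted p = 0.0746), and Acly, which supplies its acetyl-CoA (-0.80, adjusted p = 0.0633), were lower in IKKβ-/- than IKKβ+/+ mice. These genes are also abundant in adipocytes. Without replicates 3 and 4 of the Ang II-treated IKKβ-/- group, 0 of the 3 calls with Ang II were left, while the list median was 0.51 and the calls over all genes went from 785 to 271. With adipocyte markers as a covariate 0 were left as well, the median was -0.31 and 3 genes of all were called. The count was also 0 with clock genes as a covariate (median 0.83), without replicate 3 (0.34) or replicate 4 (0.84) of the Ang II-treated IKKβ-/- mice alone, and without replicate 1 of the saline-infused ones (0.35). Srebf1 itself, at 0.45 with Ang II in IKKβ-/- mice, was at 0.42 without those replicates (limma adjusted p = 0.528) and at 0.21 with adipocyte markers as a covariate (adjusted p = 0.885).

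Of 9 genes that encode LXRs, their RXR partners or other LXR targets, Nr1h3, which encodes LXRα, rose with Ang II in IKKβ-/- mice from 68.4 ± 18.9 (n = 4) to 187 ± 68.4 normalized counts (n = 5; log2 fold change 1.40, SE 0.24, limma adjusted p = 0.00566). In that comparison 8 of 9 tested white adipocyte markers were called higher as well, and the part of adipocytes in the Nr1h3 values was not tested. In IKKβ+/+ mice Nr1h3 went from 103.8 ± 13.5 with saline to 155.7 ± 23.5 with Ang II (n = 5 each), where limma called no gene of the list higher. Smpdl3a, an LXR-induced phosphodiesterase, fell by 0.70 in IKKβ+/+ mice (adjusted p = 0.0467). In these mice edgeR called 1 gene of the list and DESeq2 3. The remaining 7 genes were not called by limma in the 5 comparisons, and the list medians were -0.09 and 0.02 for Ang II in IKKβ+/+ and IKKβ-/- mice.

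Of 19 genes of sterol uptake, storage and transport, Lrp8, a lipoprotein receptor that Mylip also targets, rose with Ang II in both genotypes. It went from 63.9 ± 6.9 to 258 ± 134 normalized counts in IKKβ+/+ mice (log2 fold change 1.85, SE 0.29, limma adjusted p = 0.00203) and from 44.1 ± 16.3 to 84.6 ± 16.6 in IKKβ-/- mice (0.98, adjusted p = 0.0892). With Ang II it was lower in IKKβ-/- than IKKβ+/+ mice by a log2 fold change of -1.47 (adjusted p = 0.0803). Vldlr, another receptor that Mylip targets, fell by 0.63 in IKKβ+/+ and by 0.77 in IKKβ-/- mice (adjusted p = 0.0338 and 0.0195). In IKKβ+/+ mice Abca7, a relative of Abca1, rose by 0.64 and Gramd1c, a sterol transfer protein, fell by 0.73. In IKKβ-/- mice limma called neither, and Abca7 went from 158.2 ± 19.2 to 217.4 ± 14.9 and Gramd1c from 86.8 ± 16.1 to 66.7 ± 28.5 normalized counts. There Cd36, a scavenger receptor that adipocytes also express, rose by 2.35 and Scarb1, the high-density lipoprotein receptor, by 1.13. In IKKβ+/+ mice limma called neither of these, and Cd36 went from 1044.4 ± 517.1 to 1092.1 ± 495.9 and Scarb1 from 200.3 ± 39.6 to 258.3 ± 68.7. Of 3 oxysterol enzymes, limma, edgeR and DESeq2 called none in the 5 comparisons, and 1 had an unadjusted p under 0.05 in 1 of them.

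**Figure D3:**
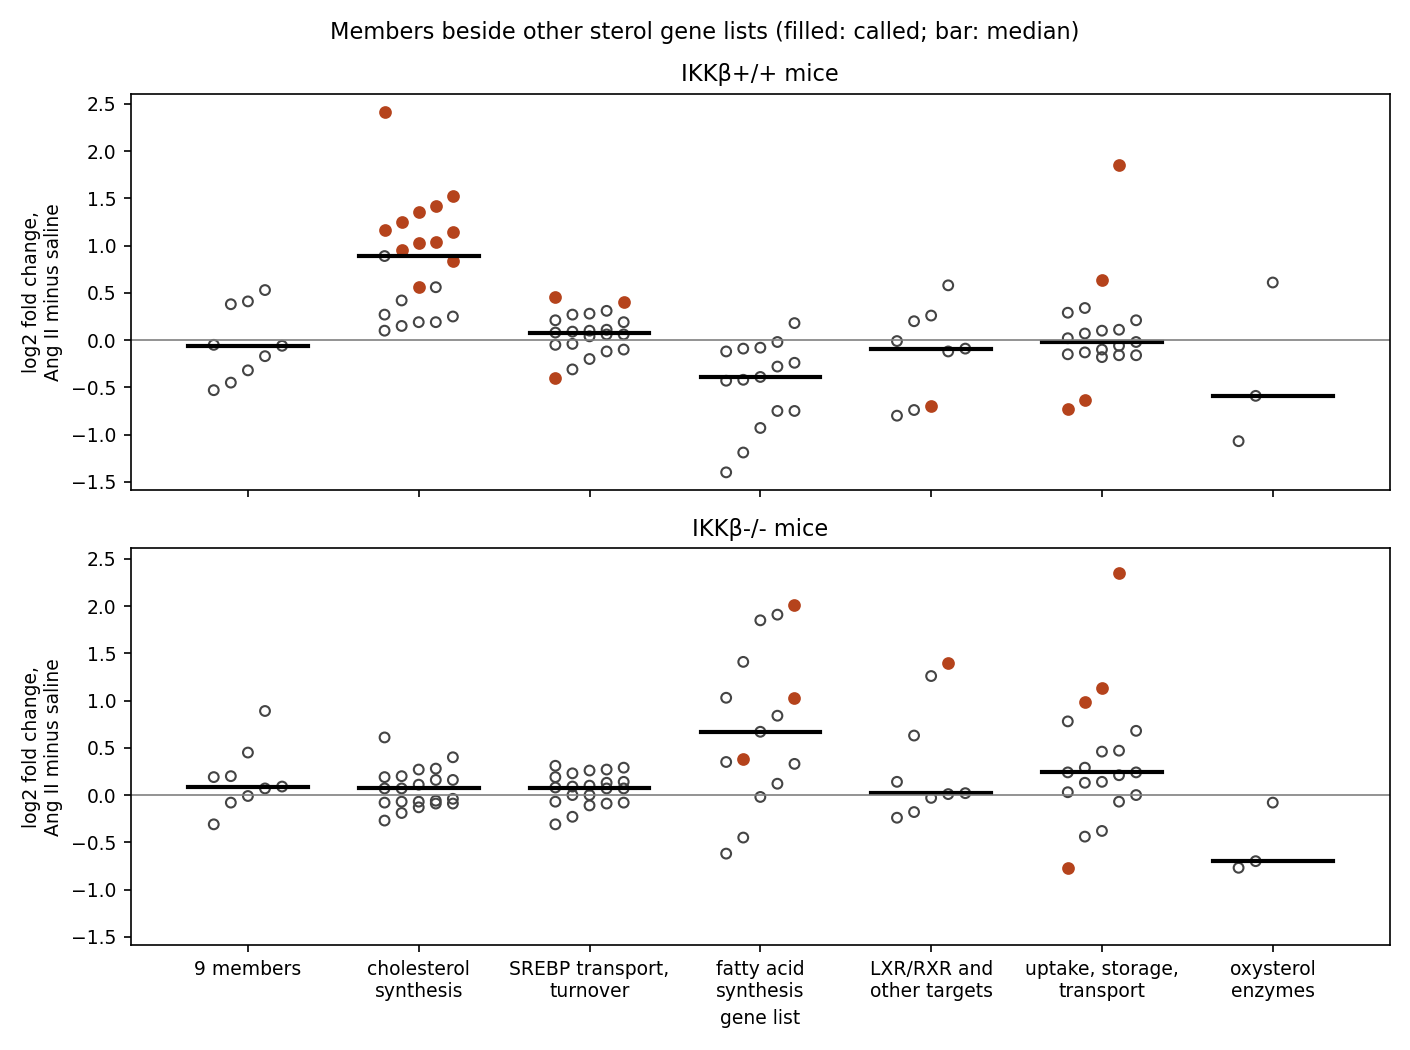
Log2 fold changes for Ang II minus saline (vertical axis) of each gene (points) in the 9-gene set and in 6 lists of related genes, in IKKβ+/+ mice (upper panel) and IKKβ-/- mice (lower panel), with called genes filled and the median of each list as a bar. All 9 members are open points in both panels, while 12 of 21 cholesterol synthesis enzymes are filled in the upper panel and none in the lower.

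Within groups, the members varied together along a few lines. Deviations of each mouse from its group mean were compared on the log2 scale over 19 mice, which share library depth and tissue composition within each point, as a description. Mylip and Abca1 had the closest relation, with Pearson's r of 0.86 and Spearman's rho of 0.83, and r was 0.72 without the 2 mice farthest from the median of Mylip. Scap and Srebf1 (r 0.66, rho 0.50), Srebf1 and Srebf2 (r 0.59, rho 0.39) and Srebf2 and Scap (r 0.57, rho 0.49) were positively related. Without the 2 mice farthest from the median of Srebf1, of Srebf1 and of Srebf2, their r was 0.51, 0.41 and 0.62 in this order. Stard4 and Abca1 ran in opposite directions (r -0.62, rho -0.48, and -0.50 without the 2 mice farthest in Stard4). Abca1 and Abcg1 showed little relation (r 0.16, rho 0.11), and likewise Insig1 and Insig2 (r -0.18, rho -0.15).

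**Figure D4:**
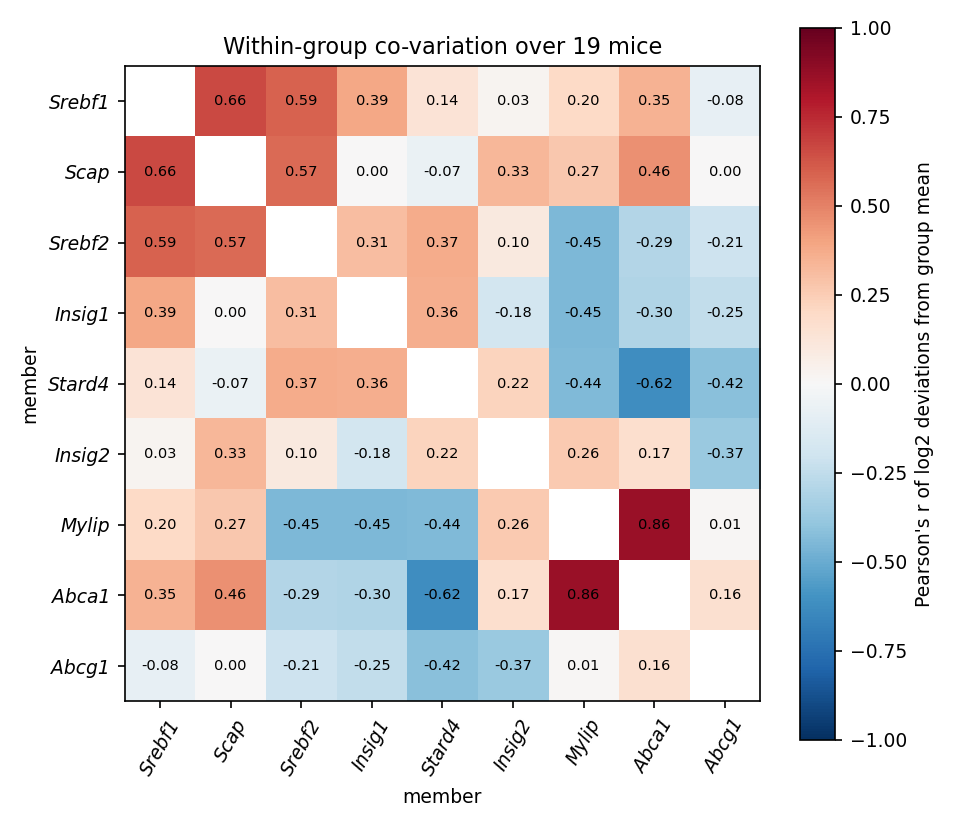
Pearson's r between the members' log2 deviations from their group means over 19 mice (colour scale from -1 to 1, values printed). Mylip with Abca1 (0.86) is the darkest positive cell and Stard4 with Abca1 (-0.62) the darkest negative one.

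Replicate 1 of the Ang II-treated IKKβ+/+ group, which carried Th and Dbh transcripts, held extremes of 5 members. Of all 19 mice it was highest in Srebf2, Insig1 and Stard4 and lowest in Mylip and Abca1. Without it, r for Mylip and Abca1 was 0.81 and r for Stard4 and Abca1 was -0.53, while r for Insig1 and Mylip went from -0.45 to -0.09. Replicate 3 of the saline-infused IKKβ-/- mice was the lowest of all mice in Srebf1, Scap and Abcg1. Replicate 4 of the Ang II-treated IKKβ-/- mice was the highest in Mylip and Abca1 and the lowest in Srebf2.

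Members of the SREBP arm differed in how they followed the cholesterol synthesis enzymes within groups. The mean of the 21 enzymes was related to Srebf2 with r 0.75 (rho 0.64), to Insig1 with r 0.69 (rho 0.51) and to Stard4 with r 0.66 (rho 0.54). Without the 2 mice farthest in each member these were 0.66, 0.32 and 0.71, so the relation of Insig1 rested largely on such mice. Srebf1 had r 0.49 (rho 0.47, and 0.30 without the 2 farthest mice), Scap r 0.28 (rho 0.21) and Insig2 r -0.15 (rho -0.33). Mylip (r -0.63, rho -0.48) and Abca1 (r -0.53, rho -0.27) ran against the enzymes, and without the 2 farthest mice r was -0.24 and -0.07. Srebf2 was as closely related to the smooth muscle markers (r 0.75, rho 0.84, and 0.76 without the 2 farthest mice). Srebf1 was related to the fatty acid synthesis genes (r 0.60, rho 0.61, and 0.41 without the 2 farthest mice). Abca1 was related to the LXR list with r 0.70 (rho 0.66, and 0.54 without the 2 farthest mice). For that list r was 0.52 with Mylip, 0.47 with Abcg1 and 0.20 with Srebf1 (rho 0.51, 0.34 and 0.36). Without the 2 farthest mice these r were 0.26, 0.29 and 0.19. Abca1 was more closely related to the list of sterol uptake, storage and transport, with r 0.80 (rho 0.76, and 0.73 without the 2 farthest mice). To the fibroblast markers it was related with r 0.90 (rho 0.85, and 0.79 without the 2 farthest mice). Mylip was related to the fibroblast markers with r 0.76 (rho 0.70, and 0.59 without them), and Stard4 with r -0.70 (rho -0.58, and -0.57 without them).

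**Figure D5:**
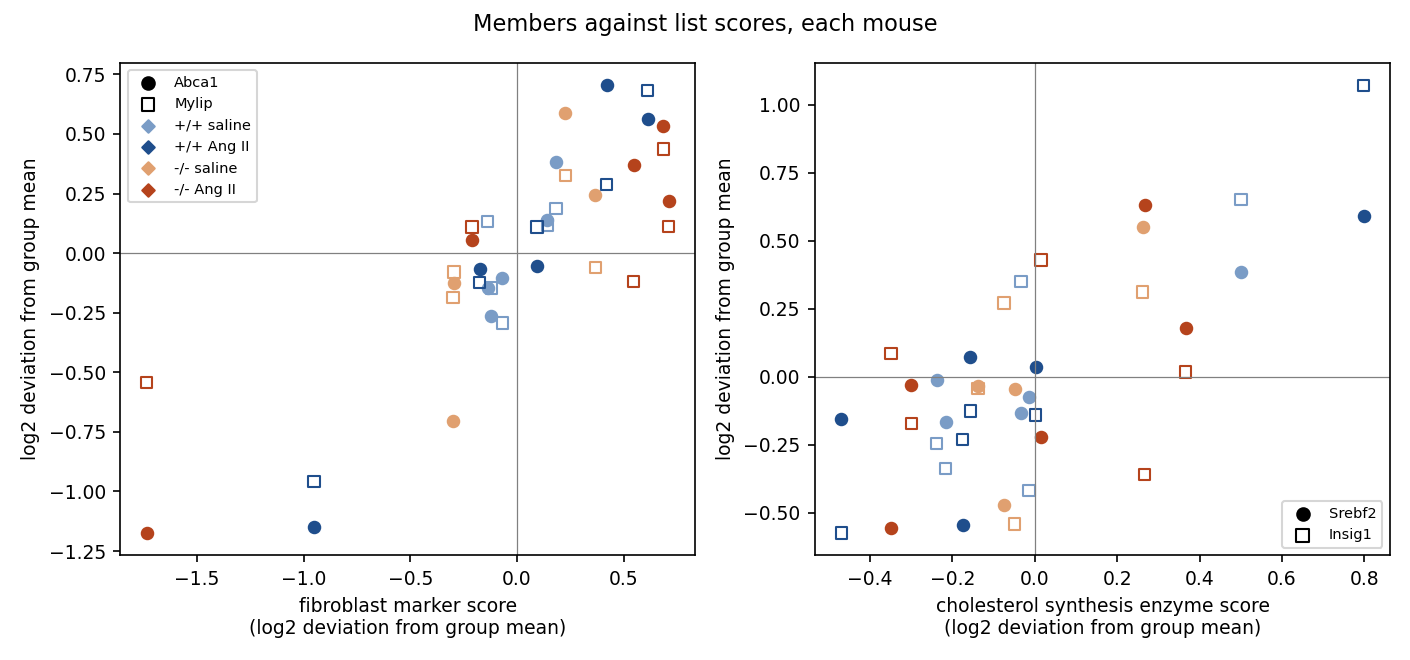
Left, log2 deviations of Abca1 (filled circles) and Mylip (open squares) from their group means against that of the fibroblast marker mean. Right, those of Srebf2 (filled circles) and Insig1 (open squares) against that of the cholesterol synthesis enzyme mean. Each point is 1 of 19 mice, coloured by group; r is 0.90, 0.76, 0.75 and 0.69 in this order, and 2 mice at the lower left hold the lowest values of the left panel.

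The 3 genes whose within-group pattern was most like each member were sought among 11421 tested genes with a mean of at least 50 normalized counts. Abca1 was closest to Igsf10 and Gas6 (r 0.94 and rho 0.91 for both). Mylip was closest to Klhl24 (r 0.91, rho 0.81), Ifit2, an interferon-induced gene (r 0.91, rho 0.84), and Abca8a (r 0.87, rho 0.78). Srebf2 was closest to Xpo6 (r 0.91, rho 0.90), Fem1b (r 0.90, rho 0.93) and Cnnm4 (r 0.90, rho 0.91). Insig1 was closest to Cluh (r 0.87, rho 0.81), Rgs2 (r 0.81, rho 0.74) and Hmgcs1, the cholesterol synthesis enzyme upstream of mevalonate (r 0.81, rho 0.66). Srebf1 was closest to Scd2, a desaturase of the fatty acid list (r 0.90, rho 0.71), Slc25a44 (r 0.83, rho 0.81) and Focad (r 0.79, rho 0.75).

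Scap was closest to Cyb5r1 (r 0.88, rho 0.84), Usp19 (r 0.86, rho 0.80) and Thada (r 0.84, rho 0.66), and Abcg1 to Ninj1 (r 0.88, rho 0.80), Tmem134 (r 0.85, rho 0.71) and Sfrp1 (r 0.83, rho 0.80). The nearest genes of Stard4 were Smyd4 (r 0.81, rho 0.78), Telo2 (r 0.80, rho 0.74) and Ecd (r 0.80, rho 0.70), and those of Insig2 were Dcun1d4 (r 0.79, rho 0.73), Lzts3 (r 0.78, rho 0.68) and Ercc8 (r 0.77, rho 0.70). Over the 27 pairs, r without the 2 mice farthest in the member lay between 0.55 (Insig1 with Hmgcs1) and 0.89 (Abca1 with Igsf10). The closest genes were picked as the highest of 11421, so these values are high in part by choice.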

How the data were processed

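Poly(A) RNA of the SRA was sequenced as single reads. Per the labels and the study's methods, the authors used Trimmomatic 0.35 for trimming, STAR 2.7.1a for alignment to GRCm38, Gencode for gene models and DESeq2 1.30.1 for normalization. The deposited signal is a normalized count, that is, reads scaled by a size factor per mouse. Each deposited value (100% of them) was a whole multiple of 1 read within 0.1 read, so reads were recovered for count tests.

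The tested genes (14845 of 20408) reached 10 normalized counts in 4 or more mice. log2(value + 1) was fitted with limma 3.58.1 in R 4.3.3, with trend and 4 group means, and p-values were adjusted by Benjamini-Hochberg. Fold changes on this scale understate the change of low genes. The unit called for this test, and edgeR 4.0.16 and DESeq2 1.42.0 on recovered reads were alternatives. The fit was tested on simulated data.

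The members and lists were chosen with earlier results of these data known. Named are all members, per list and comparison up to 4 called genes with the largest change and every called gene where at most 5 were called, and the 3 genes most like each member. Other cell types were read from fixed marker lists. Exon lengths and 3′ untranslated regions came from GENCODE M21, promoters and miRNA from RefSeq. A limma p-value sets a difference of group means against the spread between mice within groups. That spread was pooled over the 4 groups and drawn toward that of genes of similar level. Of the genes most like the members, 1 is not reported here.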

Additional observations from a re-analysis of the deposited data

Results flagged for a closer look

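In 3 of 36 member-by-group sets, 1 mouse lay far from the others of its group by Dixon's criterion, and chance flags about 1 in 20 such sets. Insig1 was 1120.3 normalized counts in replicate 1 of the Ang II-treated IKKβ+/+ mice, where the other 4 lay between 358 and 488. Srebf2 was 1593.9 in replicate 1 of the saline-infused IKKβ+/+ mice, where the others lay between 1088 and 1209.8. Srebf1 was 1065.3 in replicate 4 of the saline-infused IKKβ-/- mice, where the other 3 lay between 468 and 558.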

How the results depend on the processing

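Over 34 alternative settings, of which the fit of only the groups compared was not made for the difference, no member was called for the difference of the Ang II effect or between genotypes with Ang II. For Ang II in IKKβ+/+ mice the number of members called was 0, and 0 to 1 when each mouse was left out in turn (Mylip without replicate 3 of the Ang II-treated mice). For Ang II in IKKβ-/- mice it was 1 with DESeq2 and 1 with fibroblast markers as a covariate (Abca1 in both), and 0 to 1 leaving out each mouse (Abca1 or Srebf1). With saline it was 2 when the saline groups alone were fitted (Abca1 and Stard4) and 0 to 2 leaving out each mouse (Srebf1 and Scap without replicate 4 of the IKKβ-/- mice). Of the 45 log2 fold changes 31 kept their sign in every setting, and those that changed it were at most 0.45 in size; the cause was not tested. Scaling by TMM moved the median of all genes by less than 0.1.

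Leaving out each mouse gave ranges across 0 for Srebf2 with Ang II in IKKβ-/- mice (-0.168 to 0.174) and between genotypes with saline (-0.319 to 0.0221), and for Scap with Ang II in IKKβ+/+ mice (-0.118 to 0.00116). So it did for Insig1 with Ang II in IKKβ-/- mice (-0.0886 to 0.195) and between genotypes with saline (-0.0639 to 0.221), and for Abcg1 with Ang II in IKKβ-/- mice (-0.177 to 0.377) and between genotypes with Ang II (-0.189 to 0.181). For Insig2 the ranges were -0.0657 to 0.0466 for the difference, -0.0688 to 0.0337 with saline and -0.0826 to 0.0293 with Ang II.

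With adipocyte markers as a covariate the sign changed for Srebf2 (0.325), Insig1 (-0.295), Mylip (-0.125) and Abcg1 (-0.349) with Ang II in IKKβ-/- mice, for Insig2 in the difference (0.0167) and for Abcg1 between genotypes with Ang II (-0.0929). With clock genes as a covariate it changed for Srebf2 (0.27) and Abcg1 (-0.154) with Ang II in IKKβ-/- mice, Insig2 in the difference (0.0361) and Insig1 between genotypes with saline (-0.032). With macrophage markers it changed for Srebf2 with Ang II in IKKβ-/- mice (0.0213), Insig2 in the difference (0.031), and Insig1 (-0.0677) and Abcg1 (0.022) between genotypes with saline. With fibroblast markers it changed for Abca1 with Ang II in IKKβ+/+ mice (0.136) and, between genotypes with saline, for Mylip (0.0707) and Insig1 (-0.0452). Array weights changed it for Insig2 with saline (0.0537) and Abcg1 with Ang II between genotypes (-0.0737), and edgeR for Srebf2 with Ang II in IKKβ-/- mice (0.00386). Without replicates 3 and 4 of the Ang II-treated IKKβ-/- mice it changed for Srebf2 (0.249), Insig1 (-0.0798) and Abcg1 (-0.161) with Ang II in those mice and for Abcg1 between genotypes with Ang II (-0.192). Without replicates 1 and 3 of the Ang II-treated IKKβ+/+ mice it changed for Insig2 in the difference (0.00254) and Abcg1 between genotypes with Ang II (-0.0721). These 2 removals and the fibroblast covariate were chosen after seeing the data.

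Over all genes, DESeq2 called 279 genes for the difference and edgeR 3, where limma called 0. DESeq2 called 1437 genes between genotypes with saline, where limma called 812. With Ang II in IKKβ-/- mice DESeq2 called 1164, where limma called 785. Between genotypes with Ang II, DESeq2 called 521 and edgeR 16, where limma called 19. No paired analysis was possible because the groups share no mouse and the labels carry no number that ties mice of different groups.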
